A study of Homo sapiens with 9 samples.

Results

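Of the 25 extracellular matrix genes examined here in BT-549 breast cancer cells, 4 had a lower signal after transfection with a miR-150-5p mimic than after a negative control RNA and also than after mock transfection. These were THBS1, LOXL1, NID1 and TNC. A further 3, NID2, FBN1 and FBLN2, passed the test against mock alone, and TNC was also lower in the negative control than in mock. None of the 25 passed upward in any of the 3 comparisons. The genes were chosen by symbol, from families named for collagens, laminin chains, integrin subunits and matrix glycoproteins, among the 14884 genes for which the array's annotation gave a single symbol. They came from 33 array features, and for each gene the feature with the highest mean over the 9 arrays was used. The annotation used here named 1 collagen, COL26A1, and 0 laminin and 0 integrin genes under this rule, so those families are not analysed here. The 25 genes are adhesive glycoproteins, nidogens, fibrillins and fibulins, lysyl oxidases, small proteoglycans with versican, and that collagen.

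BT-549 is a human breast cancer cell line of the triple-negative type, and miR-150-5p is a small regulatory RNA that the study put back into it. All cells were grown in RPMI-1640 with serum and treated with the lipid reagent Lipofectamine RNAiMAX. Mock cells received the lipid without RNA, negative control cells a non-specific RNA at 50 nM, and mimic cells the mature miR-150-5p at 50 nM, with 3 arrays per group. The medium was changed at 24 h and total RNA was taken at 72 h, then read on Affymetrix Human Gene 2.0 ST arrays as log2 signals, so that a difference of 1 is a doubling. Nothing in the labels states whether the 3 samples per group came from separate cultures, and p-values here cover only the spread among the samples, which could be technical. The number of arrays limits the precision. A single cell line was used, and in RNA from whole cultures fewer cells of a kind and less RNA per cell cannot be told apart. Signals of different features are not on a common scale, so marker levels describe the cells and are no strict check of the label. ESR1, PGR and EPCAM, of hormone receptor-positive and epithelial cells, read 1.64 to 2.37 over the 9 arrays. The other measured markers of luminal breast cells were KRT18 (7.31 to 7.75), GATA3 (5.04 to 6.11), KRT8 (3.44 to 4.27), KRT19 (2.37 to 3.02) and FOXA1 (2.02 to 2.42). Of 4 basal markers 2 were measured, KRT5 (1.71 to 2.18) and KRT14 (2.47 to 3.10). The mesenchymal filament gene VIM read 8.47 to 9.38. Of 4 endothelial markers 3 were measured (2.01 to 2.80), and of 4 leukocyte markers CD14 alone (1.96 to 2.62).

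The extracellular matrix is the protein network that cells secrete and hold on to. Fibronectin and the thrombospondins and tenascins bind cell surface receptors and other matrix proteins, nidogens join laminin to type IV collagen in basement membranes, fibrillins and fibulins build microfibrils and elastic fibres, and lysyl oxidases crosslink collagen and elastin. Cancer cells with mesenchymal features are known for making many of these proteins.

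The 4 genes that passed against both controls are shown first with the 250 bases before their RefSeq transcription start (GRCh38.p14, strand of the gene, 5′ to 3′). Whether these genes share a regulator was not tested. Capitals mark matches on either strand to any of 5 motifs: the Sp1 GC box GGGCGG, the TATA box TATAAA, the AP-1 site TGANTCA, the E-box CACCTG of SNAI and ZEB factors, and the TEAD site CATTCC. Matches of a motif that overlap each other were counted apart.
THBS1, chr15:39580829-39581078, plus strand: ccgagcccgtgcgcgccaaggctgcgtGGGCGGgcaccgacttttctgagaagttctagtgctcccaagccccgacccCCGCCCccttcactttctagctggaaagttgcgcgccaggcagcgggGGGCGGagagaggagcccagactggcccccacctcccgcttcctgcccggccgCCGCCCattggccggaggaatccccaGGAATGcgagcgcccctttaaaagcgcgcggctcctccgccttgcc
LOXL1, chr15:73926212-73926461, plus strand: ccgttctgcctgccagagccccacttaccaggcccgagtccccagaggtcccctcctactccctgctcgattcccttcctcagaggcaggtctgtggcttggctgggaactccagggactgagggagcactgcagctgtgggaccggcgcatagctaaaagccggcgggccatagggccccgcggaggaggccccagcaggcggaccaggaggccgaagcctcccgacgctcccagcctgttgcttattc
NID1, chr1:236065091-236065340, minus strand: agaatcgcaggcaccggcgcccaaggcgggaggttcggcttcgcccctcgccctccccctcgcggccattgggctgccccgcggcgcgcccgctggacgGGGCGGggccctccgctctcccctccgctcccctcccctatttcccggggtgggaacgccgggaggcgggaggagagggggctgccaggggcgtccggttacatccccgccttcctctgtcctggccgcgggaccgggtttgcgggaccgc
TNC, chr9:115118158-115118407, minus strand: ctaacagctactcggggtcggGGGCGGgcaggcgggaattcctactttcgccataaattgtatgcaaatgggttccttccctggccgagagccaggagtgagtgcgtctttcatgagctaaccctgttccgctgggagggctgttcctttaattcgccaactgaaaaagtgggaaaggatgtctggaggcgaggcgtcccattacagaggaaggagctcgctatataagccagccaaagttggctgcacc

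The THBS1 window held 4 matches to the GC box and 1 to the TEAD site, those of NID1 and TNC held 1 GC box each, and the LOXL1 window held none of the 5 motifs. G and C made up 54.8% of the TNC window and 76.4% of that of NID1. Windows were found for 22 of the 25 genes, 30 in all because some genes have several starts. The GC box was present in 19 of the 30 windows and in 42.6% of 35116 RefSeq windows of the same length. CACCTG and CATTCC were each present in 6 of 30, against 17.5% and 11.9% of all windows, TATAAA in 2 (10.7% of all) and TGANTCA in 0 (6.6% of all). The LOX windows chr5:122077175-122077424 and chr5:122077224-122077473 overlap, and their CACCTG is 1 site counted in both, so windows are not independent. These are matches of letters and say nothing of binding.

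The comparison of mimic with negative control asks what miR-150-5p did beyond the entry of a small RNA. Here 0 of the 25 genes rose, 4 fell and 21 did not pass, against 3.18% of all genes tested that changed in either direction, 1.76% that rose and 1.42% that fell. At an unadjusted p under 0.05 by limma there were 0 genes higher and 6 lower, where 9.18% of all genes were higher and 6.80% lower. The median log2 difference was -0.11 over the 25 and -0.004 over all genes. All 3 mimic arrays lay below all 3 negative control arrays for 8 of the 25 genes and above for 1 of them. Over all genes tested these shares were 8.30% and 10.3%. Against mock, 0 rose, 7 fell and 18 did not pass, where 3.90% of all genes changed, 2.28% rising and 1.62% falling, with 0 higher and 9 lower at an unadjusted p under 0.05 (10.2% and 7.36% of all genes). The median was -0.16, against 0.000 over all genes. The mimic arrays lay below all mock arrays for 11 of the 25 genes and above for 0, where 8.52% of all genes lay below and 11.7% above. The count against mock was 4 without mock 1, without mimic 1 and without mimic 3, and in a fit on the 6 arrays compared. In each of these fits the share of all genes that changed was also below 3.90%. The comparisons with the 2 controls use the same mimic arrays, so their values are not independent. The negative control against mock gave 0 genes that rose and 1 that fell, TNC, where 0.645% of all genes changed, 0.168% rising and 0.477% falling. At an unadjusted p under 0.05, 0 were higher and 4 lower by limma, where 5.53% of all genes were higher and 5.51% lower. The negative control arrays lay below all mock arrays for 3 of the 25 genes, TNC, FN1 and THBS2, and above for 1, THBS1, where 5.78% of all genes lay below and 6.21% above. Without mock 2 the number that fell was 3, with FN1 and NID2, and in a fit on the 6 arrays compared it was 0 (4 at an unadjusted p under 0.05). Of all genes 0.752% and 0.121% changed in these fits.

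Some markers of mesenchymal cells were lower in the mimic as well. Of 5 such markers 4 were measured, and 3 of them, SNAI2, TWIST1 and ZEB1, transcription factors that maintain the mesenchymal state, fell in the mimic against each control, while VIM did not pass. SNAI2 read 7.426, 7.257 and 7.503 on mock, 6.89, 6.88 and 7.36 on negative control and 5.53, 5.73 and 5.79 on mimic arrays. It was lower in the mimic by -1.36 ± 0.14 against the negative control (adjusted p = 0.00184) and by -1.715 ± 0.14 against mock (adjusted p = 0.000568). TWIST1 was lower by -0.61 ± 0.098 (adjusted p = 0.0114) and -0.78 ± 0.098 (adjusted p = 0.0038), the first lost on leaving out mimic 1 or 3 (0.0535 at most). ZEB1 was lower by -0.36 ± 0.076 (adjusted p = 0.0362) and -0.585 ± 0.076 (adjusted p = 0.00433). The first of these was lost on leaving out any array but negative control 2 (0.11 at most), with a robust variance trend (0.0676) and in a fit on the 6 arrays compared (0.0771). VIM was at 0.10 ± 0.17 against the negative control (adjusted p = 0.847) and -0.33 ± 0.17 against mock (adjusted p = 0.366). The log2 signals of the 4 genes summed to 28.7 to 29.2 on mock, 27.4 to 28.0 on negative control and 25.3 to 25.9 on mimic arrays, so the groups did not overlap. This sum holds the 3 genes already called as lower, so it is no separate evidence. In the negative control against mock 0 of the 4 passed by limma, with 3 at an unadjusted p under 0.05. At that p 5.53% of all genes were higher and 5.51% lower. Of 8 luminal markers measured, 0 passed in any comparison by limma. In each comparison 1 was lower at an unadjusted p under 0.05, where 5.51% to 7.36% of all genes were lower. The sum of the 8 was 26.2 to 27.6 on mimic, 27.6 to 29.1 on negative control and 27.2 to 28.9 on mock arrays. The part of these shifts in the changes of the matrix genes was not tested.

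The genes differed in signal. Of the 25, 16 had a mean at or above the median of all genes tested (3.34), and all 7 genes that fell were among these. Of genes with that signal 5.85% changed against the negative control and 7.20% against mock, beside 4 and 7 of the 16, and 1.24% changed between the controls, beside 1 of the 16. The 9 below the median were DCN, LUM, FBN2, THBS4, FBLN5, VCAN, FBLN7, LOXL3 and LOXL4, and none of them passed in any comparison. Signals of different features are not on a common scale, so the levels of 2 genes are not compared here.

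**Figure D1:**
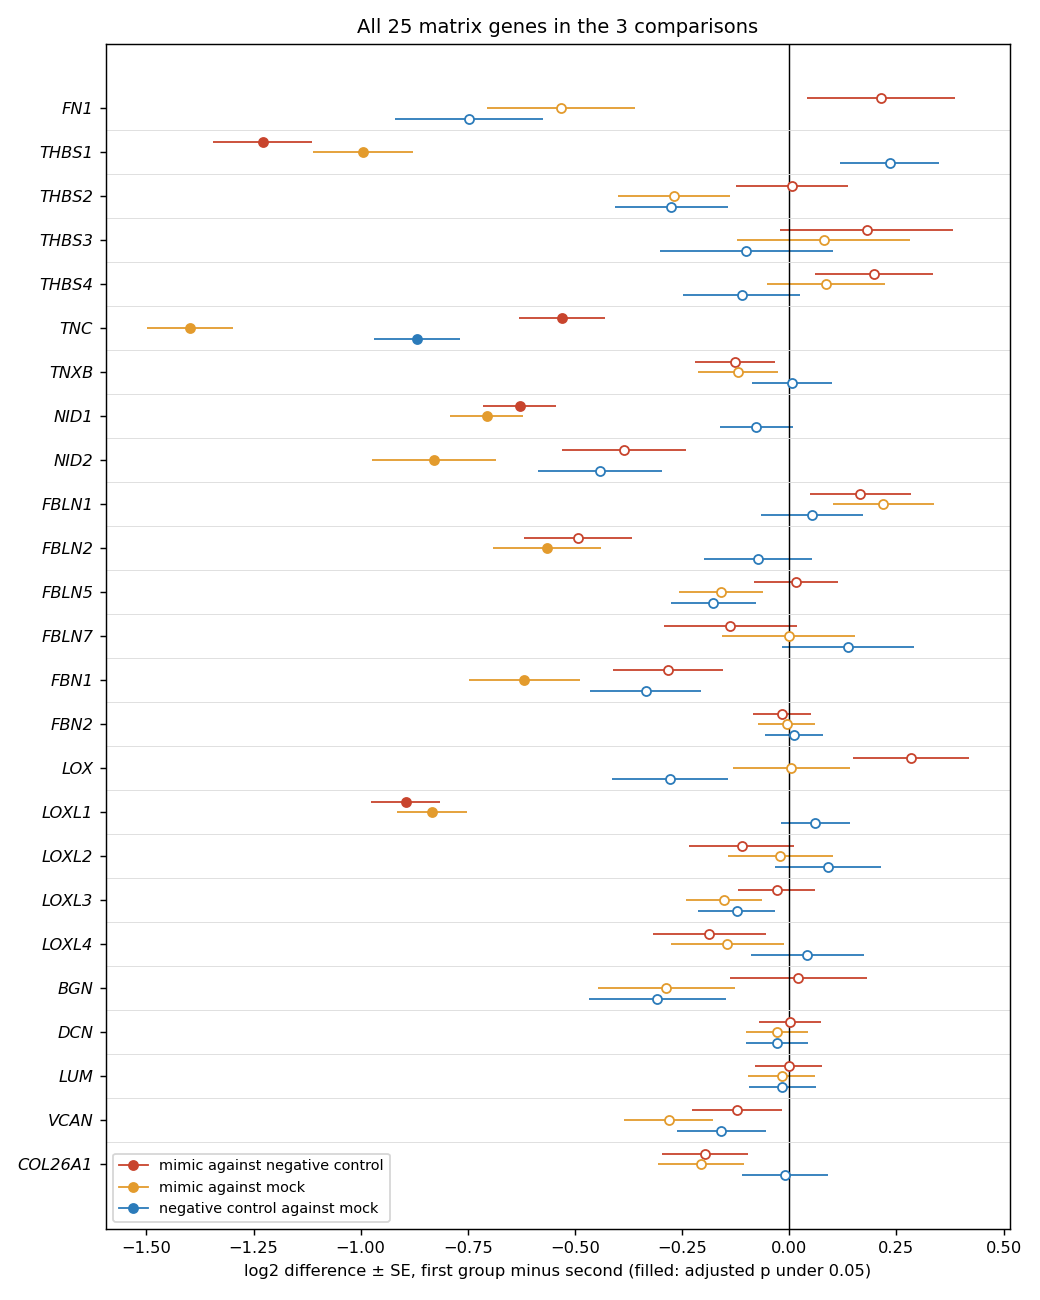
Log2 difference with its SE (n = 3 arrays per group) for the 25 matrix genes, ordered by role, in each of the 3 comparisons; filled points have an adjusted p under 0.05. All filled points lie to the left of 0, with TNC at -1.40 against mock the farthest, while the points of DCN, LUM and FBN2 lie near 0 in all 3 comparisons.

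Among the adhesive glycoproteins, THBS1 fell most against the negative control. It encodes thrombospondin 1, a secreted protein that activates latent TGF-beta and restrains blood vessel growth. Its log2 signal was 7.946, 7.724 and 7.996 on the mock arrays, 8.03, 8.04 and 8.30 on the negative control arrays and 7.07, 6.83 and 6.79 on the mimic arrays. The 3 mimic arrays were thus the lowest of the 9, and the negative control arrays all lay above the mock arrays. The difference was -1.23 ± 0.12 (SE, 2.34-fold lower, adjusted p = 0.0011 by limma) against the negative control and -0.995 ± 0.12 (1.99-fold lower, adjusted p = 0.00268) against mock. Between the negative control and mock it was 0.23 ± 0.12 (adjusted p = 0.51). With each array left out in turn THBS1 kept both calls, with adjusted p up to 0.0186.

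TNC encodes tenascin C, a large glycoprotein of remodelling tissue and tumour stroma. It read 6.41, 6.43 and 6.53 on mock, 5.79, 5.56 and 5.41 on negative control and 5.06, 5.01 and 5.10 on mimic arrays. The 3 groups did not overlap, with mock highest, negative control between and mimic lowest. Against mock the mimic was lower by -1.40 ± 0.10 on the log2 scale (2.64-fold, adjusted p = 0.000403), and the negative control was lower by -0.87 ± 0.10 (1.83-fold, adjusted p = 0.0071). The mimic differed from the negative control by -0.53 ± 0.10 (1.44-fold, adjusted p = 0.0239). The last call was lost without negative control 1 or any of the mimic arrays (0.0836 at most), and in a fit on the 6 arrays of these groups alone (adjusted p = 0.071). The call of negative control against mock held in each fit that left out 1 array (adjusted p up to 0.0406). With the replicate number as a block over the 6 arrays of these groups it was missed (adjusted p = 0.114), as it was in a fit on those 6 arrays without the block (adjusted p = 0.0664).

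FN1 encodes fibronectin, which integrins bind to attach cells to the matrix. Its signals were 9.24, 8.83 and 9.48 on mock, 8.46, 8.16 and 8.69 on negative control and 8.59, 8.75 and 8.61 on mimic arrays. Both groups that received RNA lay wholly below mock, and they overlapped with each other. The difference from mock was -0.75 ± 0.17 in the negative control (unadjusted p = 0.00169, adjusted p = 0.111) and -0.53 ± 0.17 in the mimic (adjusted p = 0.135), so neither passed. Without mock 2, the lowest of the mock arrays, the negative control was at -0.92 (adjusted p = 0.0426). Without both mock 2 and negative control 2 the mimic was at -0.71 against mock (adjusted p = 0.0276). Between mimic and negative control FN1 differed by 0.21 ± 0.17, with a 95% interval from -0.18 to 0.60.

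**Figure D2:**
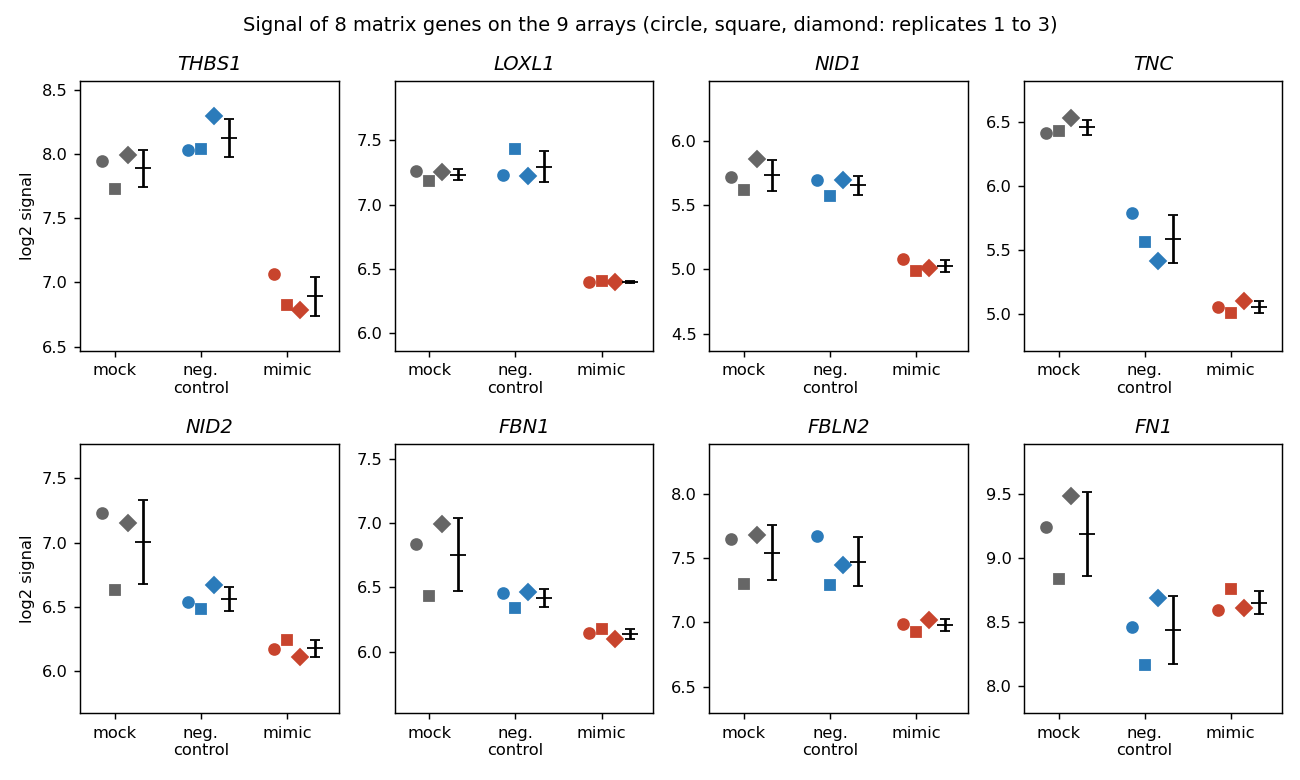
Log2 signal of 8 matrix genes on each array (points, with the replicate number by shape) and the group mean with its SD (black bars, n = 3), each panel spanning the same log2 range. The mimic arrays are the lowest of the 9 for each gene shown except FN1, where both RNA-transfected groups lie below mock.

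The other adhesive glycoproteins did not pass in any comparison. THBS2, a relative of THBS1 that also restrains vessel growth, read 5.09, 5.21 and 5.65 on mock, 5.02, 5.05 and 5.05 on negative control and 4.97, 5.09 and 5.09 on mimic arrays. The negative control arrays lay below all mock arrays, yet the difference of -0.28 ± 0.13 had an adjusted p of 0.489. THBS3, another member of the family, was at 0.18 ± 0.20 in the mimic against the negative control, with mock 3 the highest of the 9 arrays at 6.22 and mock 2 the lowest at 5.38. THBS4 differed by 0.20 ± 0.14 in that comparison. TNXB encodes tenascin X, which organises collagen fibrils. It has 8 features on the array, named for the same gene, and the 1 used here was at -0.13 ± 0.094 against the negative control, while the 8 ranged from -0.18 to 0.02. Thus THBS1 was the thrombospondin, and TNC the tenascin, that passed. Whether THBS1 differed from THBS2, THBS3 or THBS4 in its change was not tested.

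Both nidogen genes fell against mock, NID1 in the mimic against each control and NID2 against mock alone. NID1, nidogen 1, read 5.72, 5.62 and 5.86 on mock, 5.70, 5.57 and 5.69 on negative control and 5.08, 4.99 and 5.01 on mimic arrays. Mock and negative control overlapped and the mimic arrays lay below both. The difference was -0.63 ± 0.086 (1.55-fold lower, adjusted p = 0.00539) against the negative control and -0.71 ± 0.086 (1.63-fold lower, adjusted p = 0.00312) against mock. NID1 kept both calls with each array left out (adjusted p up to 0.0284).

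NID2, nidogen 2, read 7.23, 6.63 and 7.15 on mock, 6.54, 6.48 and 6.67 on negative control and 6.17, 6.24 and 6.11 on mimic arrays. The mimic arrays were the lowest, and the negative control arrays overlapped with mock only through mock 2. The mimic was lower than mock by -0.83 ± 0.14 (1.78-fold, adjusted p = 0.0159), a call lost when mock 1, mimic 1 or mimic 3 was left out (adjusted p up to 0.0658) and in a fit on these 6 arrays (0.0551). Against the negative control it was at -0.39 ± 0.14 (adjusted p = 0.221), and the same difference passed without mock 2 (adjusted p = 0.0489). The negative control was at -0.44 ± 0.14 against mock (adjusted p = 0.269), and at -0.63 without mock 2 (adjusted p = 0.0284).

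Of 6 fibrillin and fibulin genes, 0 rose and 2 fell against mock, where 1.62% of all genes fell. Against the negative control 0 passed, and limma gave 1 lower at an unadjusted p under 0.05, beside 6.80% of all genes. FBN1, fibrillin 1, forms the microfibrils that store latent TGF-beta. It read 6.84, 6.44 and 6.99 on mock, 6.45, 6.34 and 6.47 on negative control and 6.14, 6.17 and 6.10 on mimic arrays. As for NID2, the mimic arrays were the lowest and mock 2 lay with the negative control arrays. The mimic was lower than mock by -0.62 ± 0.13 (1.53-fold, adjusted p = 0.0331). It was at -0.28 ± 0.13 against the negative control (adjusted p = 0.323). The call against mock was lost on leaving out mock 1, mock 3, negative control 1, negative control 3 or any mimic array (0.116 at most), and in a fit on these 6 arrays (adjusted p = 0.082).

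FBLN2, fibulin 2, a glycoprotein of basement membranes and elastic fibres, read 7.65, 7.30 and 7.68 on mock, 7.67, 7.29 and 7.45 on negative control and 6.99, 6.93 and 7.02 on mimic arrays. Mock and negative control covered the same range and the mimic arrays lay below it. The difference was -0.56 ± 0.13 against mock (1.48-fold lower, adjusted p = 0.0415) and -0.49 ± 0.13 against the negative control (adjusted p = 0.0743). The first was lost without mock 1 or 3, negative control 3 or any mimic array (0.144 at most), with each array centred on its median (adjusted p = 0.0512) and in a fit on these 6 arrays (0.0626). The second passed after a further quantile normalization (adjusted p = 0.0324), with array weights (0.0404), with the mean of small nucleolar RNAs on each array as a covariate (0.0436), in a fit on the brighter 7442 genes alone (0.0478), without mock 2 (0.046) and without mock 2 and negative control 2 together (0.0282).

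The other 4 genes of these families did not pass in any comparison. In the mimic FBLN1, fibulin 1, differed from mock by 0.22 ± 0.12 (adjusted p = 0.385), with mimic 1 the highest of the 9 arrays at 4.19. FBLN5, needed for elastic fibre assembly, was at -0.16 ± 0.098, FBLN7 at -0.001 ± 0.16 and FBN2, the fibrillin of developing tissue, at -0.01 ± 0.067 in that comparison. FBLN5, FBLN7 and FBN2 had signals below the median of all genes.

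**Figure D3:**
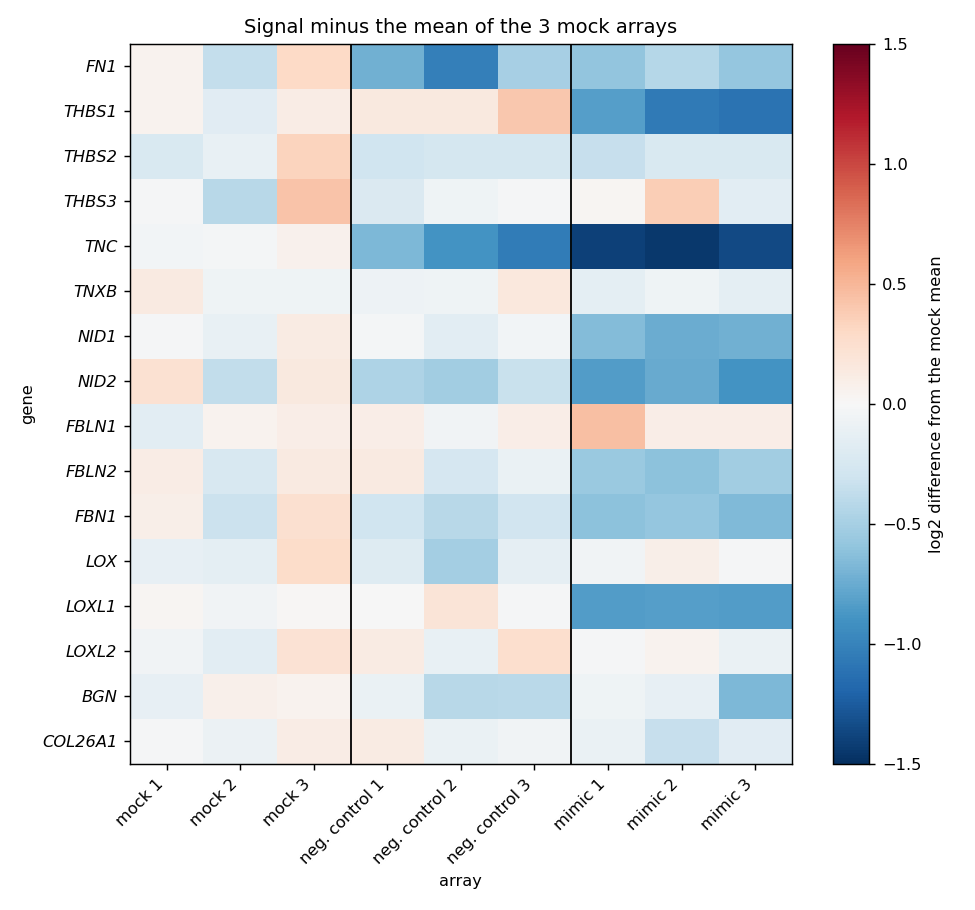
Log2 signal of the 16 matrix genes at or above the median signal on each of the 9 arrays, as the difference from the mean of the 3 mock arrays (red higher, blue lower). THBS1, NID1 and LOXL1 are at -0.65 or lower on each mimic array and between -0.16 and 0.41 on the other arrays, TNC, NID2 and FBN1 are blue on the negative control arrays and deeper blue on the mimic arrays, and FN1 is blue on both.

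Of the 5 lysyl oxidase genes, LOXL1 fell and the other 4 did not pass. LOXL1, an enzyme needed for elastic fibre renewal, read 7.26, 7.18 and 7.25 on mock, 7.23, 7.43 and 7.22 on negative control and 6.40, 6.41 and 6.40 on mimic arrays. The controls shared a narrow range, and the mimic arrays lay together below it. The difference was -0.90 ± 0.081 against the negative control (1.86-fold lower, adjusted p = 0.00108) and -0.83 ± 0.081 against mock (1.78-fold lower, adjusted p = 0.00108). Both calls held with each array left out, with adjusted p up to 0.00913.

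LOX, the founding enzyme of the family, was the gene of the 25 whose mimic arrays all lay above the negative control arrays. It read 8.05, 8.03 and 8.44 on mock, 7.98, 7.67 and 8.04 on negative control and 8.12, 8.26 and 8.15 on mimic arrays. The difference of 0.28 ± 0.14 between mimic and negative control had an adjusted p of 0.35, and the mimic was at 0.01 ± 0.14 against mock. LOXL2, which is linked to invasion in breast cancer, read 9.53, 9.42 and 9.80 on mock, 9.70, 9.47 and 9.83 on negative control and 9.57, 9.63 and 9.48 on mimic arrays, all in one range. Its difference between mimic and negative control was -0.11 ± 0.12, with a 95% interval from -0.39 to 0.16. That interval does not reach the value of LOXL1, but the difference between the 2 genes was not tested. LOXL3 was at -0.03 ± 0.090 and LOXL4 at -0.19 ± 0.13 in the same comparison, LOXL4 having all mimic arrays below the negative control arrays.

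The 4 proteoglycan genes and the collagen did not pass in any comparison. BGN, biglycan, a small proteoglycan that binds collagen, read 4.60, 4.81 and 4.78 on mock, 4.63, 4.32 and 4.32 on negative control and 4.66, 4.61 and 4.06 on mimic arrays. Its groups overlapped, and its difference from mock was -0.29 ± 0.16 in the mimic and -0.31 ± 0.16 in the negative control. VCAN, versican, a large proteoglycan of loose matrix, differed from mock by -0.28 ± 0.10 in the mimic (unadjusted p = 0.0228, adjusted p = 0.19). Its feature had a mean signal of 2.41, below the median of all genes, and its other feature gave -0.10. DCN and LUM, decorin and lumican, small proteoglycans of fibroblasts, had mean signals of 1.55 and 1.73, at percentiles 1.9 and 6.6 of all genes. Their differences lay between -0.029 and 0.001 in all 3 comparisons. COL26A1, a little studied collagen, read 3.75, 3.69 and 3.89 on mock, 3.90, 3.68 and 3.73 on negative control and 3.68, 3.43 and 3.61 on mimic arrays, with -0.21 ± 0.10 against mock (adjusted p = 0.332).

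Arrays within a group were not alike for these genes. Mock 2 was the lowest mock array for 17 of the 25 genes, against 39.2% of all genes, and negative control 2 was the lowest of its group for 15, against 36.3%. Each of these arrays also had the highest mean within its group over 23 RNAs of the nucleolus and Cajal bodies (small nucleolar RNAs), 6.78 on mock 2 beside 5.62 and 5.64, and 6.83 on negative control 2 beside 5.91 and 5.87. The mimic arrays had 6.43, 5.95 and 6.75. Mimic 3, the highest of these, was the lowest mimic array for 12 of the 25 genes, against 34.1% of all genes. With this mean as a covariate 5 of the 25 genes fell against the negative control and 7 against mock. In the negative control against mock 2 fell, the second being FN1 (-0.67 ± 0.10, adjusted p = 0.0225). The share of all genes that changed was also higher with the covariate than the 3.18%, 3.90% and 0.645% without it. Over all array features Pearson's r was 0.981 to 0.989 within groups and 0.977 to 0.986 between groups, across features that are not independent replicates.

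Genes that work with these proteins were counted in 5 lists. These were written from general knowledge, but with earlier results of these data known. Of 37 measured other matrix glycoprotein genes, 1 rose and 2 fell against the negative control, and 2 rose and 4 fell against mock, with medians of -0.018 and -0.052. Over all genes tested 1.76% rose and 1.42% fell against the negative control, and 2.28% rose and 1.62% fell against mock. EDIL3, an integrin-binding secreted protein, read 8.34, 8.30 and 8.44 on mock, 8.20, 8.05 and 8.27 on negative control and 9.01, 8.82 and 8.83 on mimic arrays. It rose in the mimic by 0.71 ± 0.091 against the negative control (adjusted p = 0.00397) and by 0.52 ± 0.091 against mock (adjusted p = 0.0159, and 0.0658 at most on leaving out mock 1 or mimic 1). CTHRC1, a secreted protein of repairing tissue, was lower by -0.59 ± 0.13 than the negative control and by -0.62 ± 0.13 than mock (adjusted p = 0.0378 and 0.0297). Both calls were lost on leaving out mock 1, mock 2, negative control 1, mimic 2 or mimic 3, and the first also on leaving out negative control 2 or 3 (0.11 at most). MGP, matrix Gla protein, an inhibitor of calcification, was lower by -0.80 ± 0.15 against the negative control (adjusted p = 0.024, and 0.0868 at most on leaving out negative control 3 or a mimic array).

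The others of this list passed against mock. HMCN1, hemicentin 1 (-1.29 ± 0.20, adjusted p = 0.00869), and MATN2, matrilin 2 (-0.73 ± 0.13, adjusted p = 0.0161, and 0.0657 at most on leaving out mock 1, mimic 2 or mimic 3), were lower in the mimic. Neither passed by limma against the negative control (-0.44 ± 0.20 and -0.38 ± 0.13, adjusted p = 0.315 and 0.177). For both genes the negative control arrays also lay below all mock arrays, at -0.855 and -0.355 (adjusted p = 0.105 and 0.337). CCN2, connective tissue growth factor, read 9.06, 9.04 and 9.42 on mock, 8.15, 8.24 and 8.37 on negative control and 8.38, 8.48 and 8.39 on mimic arrays, so that both RNA groups lay below mock. It fell by 0.92 on the log2 scale in the negative control (adjusted p = 0.00952) and by 0.76 in the mimic (adjusted p = 0.00807). With the replicate block over the 6 arrays of negative control and mock the call of CCN2 between these groups was missed (adjusted p = 0.0695). MFAP1 rose against mock by 0.77 ± 0.12 (adjusted p = 0.00901) and was at 0.30 ± 0.12 against the negative control (adjusted p = 0.244 by limma). Its negative control arrays lay above all mock arrays, at 0.47 ± 0.12 (adjusted p = 0.139). MFAP1 is named for microfibrils and is known as a nuclear protein of the spliceosome.

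Among 25 measured further proteoglycan genes, 0 rose and 1 fell against each control, SDC4, a cell surface heparan sulfate proteoglycan of focal adhesions. This count is near the share of all genes that changed (3.18% and 3.90%), so it is a value of SDC4 and no result for the list. SDC4 read 8.35, 8.31 and 8.86 on mock, 8.57, 8.69 and 8.49 on negative control and 7.58, 7.80 and 7.42 on mimic arrays. The mimic arrays lay below all others, by -0.98 ± 0.15 against the negative control (adjusted p = 0.0104, 0.0508 on leaving out mimic 3) and -0.91 ± 0.15 against mock (adjusted p = 0.0142, and 0.0627 at most on leaving out mimic 1 or 3). Of 27 focal adhesion genes, 0 passed against the negative control. At an unadjusted p under 0.05 by limma 2 were higher and 3 lower, where 9.18% of all genes were higher and 6.80% lower. Against mock 0 of the 27 rose and 2 fell, where 1.62% of all genes fell. These were KANK2 (-0.81 ± 0.19, adjusted p = 0.0465), which links talin to microtubules, and TGFB1I1 (-0.92 ± 0.20, adjusted p = 0.0409), a relative of paxillin. Both were lost when any mimic array, mock 3 or negative control 3 was left out, KANK2 also on leaving out mock 1 or negative control 1 and TGFB1I1 on leaving out mock 2 (0.167 and 0.116 at most). KANK2 was missed with array medians centred as well (adjusted p = 0.0527). Against the negative control KANK2 was at -0.61 ± 0.19 and TGFB1I1 at -0.29 ± 0.20 (adjusted p = 0.131 and 0.554 by limma). The negative control arrays of TGFB1I1 lay below all mock arrays, at -0.62 ± 0.20 (adjusted p = 0.269). Those of KANK2 overlapped with mock, at -0.20 ± 0.19.

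Of 9 genes of collagen processing, 0 passed against the negative control (1 lower at an unadjusted p under 0.05, where 6.80% of all genes were lower). Against mock 1 of the 9 fell by limma, a single gene beside 1.62% of all genes. This was P3H2, a collagen prolyl hydroxylase, at -0.65 ± 0.15 (adjusted p = 0.0496), and it was missed with array medians centred (0.057), with a robust variance trend (0.0521), with the small nucleolar RNA covariate (0.0554), and on leaving out any of the mock arrays, negative control 1 or 2, or mimic 1 or 3 (0.177 at most). Against the negative control P3H2 was at -0.15 ± 0.15 (adjusted p = 0.702 by limma). Its negative control arrays lay below all mock arrays, at -0.50 ± 0.15 (adjusted p = 0.239). Of 12 non-integrin receptors for matrix, 0 passed against either control by limma. At an unadjusted p under 0.05, 1 and 3 were lower, where 6.80% and 7.36% of all genes were lower. In the negative control against mock CCN2 was the gene of the 5 lists that passed. In the other 4 lists 0 passed in that comparison by limma, with 1, 4, 2 and 2 genes at an unadjusted p under 0.05 among those of collagen processing, focal adhesion, receptors and proteoglycans. At that p 5.53% of all genes were higher and 5.51% lower. When only the 6 arrays of each comparison were fitted, CTHRC1 and MGP were missed against the negative control (adjusted p = 0.0778 and 0.0762). In the same fits CTHRC1, KANK2, TGFB1I1, MATN2, P3H2 and SDC4 were missed against mock (0.0533 to 0.0908), and CCN2 in the negative control against mock (0.0792).

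**Figure D4:**
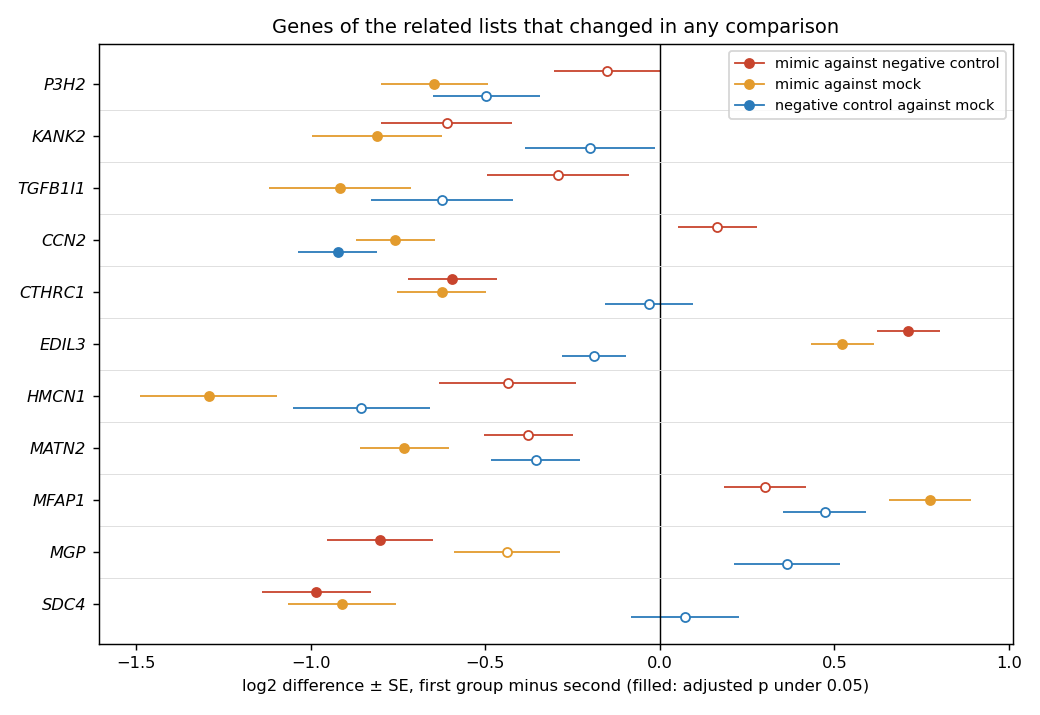
Log2 difference with its SE (n = 3 arrays per group) in the 3 comparisons for the 11 genes of the related lists that passed in any of them; filled points have an adjusted p under 0.05. SDC4 and CTHRC1 are lower in the mimic against both controls, EDIL3 is higher against both, and CCN2 is lower against mock in both the mimic and the negative control.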

How the data were processed

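The authors deposited log2 signals of 9 arrays made with RMA, per the submitters' processing notes. Its software and probe definitions were not given in the sources used here. RMA subtracts background, brings arrays to a common distribution and summarises probes, so a shift of all genes is not seen. Of 53617 features, 16098 had 1 symbol in the platform's annotation and the other 37519 had no single symbol there and are not analysed here. All 25 member symbols matched RefSeq by gene ID.

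The test was limma's moderated linear model (version 3.58.1, under R 4.3.3) over all 14884 genes and all 9 arrays, with 1 mean per group (6 residual and 9.60 total degrees of freedom) and no filter. P-values are two-sided and Benjamini-Hochberg adjusted over all genes of a comparison, and under 0.05 counted as changed. The pipeline was tested on simulated data. Alternatives are given in the closing section. Named were all members changed in any comparison, the 12 with the highest signal, up to 3 nearest misses per comparison and up to 3 changed genes per list and comparison. The other members, MATN2, the mesenchymal markers that fell and the values of CTHRC1 and EDIL3 against mock were added after their values were seen. The members and lists were chosen with earlier results of these data known.

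Across genes, same-numbered arrays of mock and negative control deviated together from their group means (r = 0.152, 0.225 and 0.147). Between differently numbered arrays of these groups r was at most 0.022. The labels state no pairing, and the fit behind the reported calls used none. These numbers were taken as pairs only in the alternatives with a replicate block. For the mimic with each control the same r ran from -0.292 to -0.054, so its same-numbered arrays did not deviate together. Differently numbered arrays of mimic and negative control reached an r of 0.240, so values of this size also arise between unlike numbers.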

Additional observations from a re-analysis of the deposited data

How the results depend on the processing

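Every alternative called members downward alone. The number of the 25 genes that changed was 4 for mimic against negative control, 7 for mimic against mock and 1 for negative control against mock. Leaving out each array in turn gave 3 to 6, 4 to 7 and 1 to 3. The share of all genes that changed moved in these fits too. For mimic against negative control it was below the reported 3.18% in each. For mimic against mock it was below 3.90% except without negative control 2. For negative control against mock it was below 0.645% except without mock 2. A fit on the 6 arrays compared gave 4 for mimic against mock and 0 for negative control against mock (4 at an unadjusted p under 0.05 by limma). In both of these fits the share of all genes that changed was also lower than in the fit on all 9 arrays. For negative control against mock the small nucleolar RNA covariate gave 2, the replicate block over those 6 arrays 0 and leaving out mock 2 and negative control 2 together 0 (each of the last 6 at an unadjusted p under 0.05). The last 2 of these were chosen after seeing the data. Of all genes 1.03% changed with the covariate and 0.188% without mock 2 and negative control 2. With the block over 6 arrays 0 of all 14884 genes changed, so its 0 is no result about the members. A replicate block over all 9 arrays gave 3, 7 and 1: TNC was missed for mimic against negative control (adjusted p = 0.0593), whose numbers do not pair, and no other member's call changed. Of the genes in the other lists CTHRC1 was missed with this block against the negative control and against mock (0.0651 and 0.0525), as were KANK2 and P3H2 against mock (0.0715 and 0.0794), and of the mesenchymal markers ZEB1 against the negative control (0.0786). Without mock 2 and negative control 2 together, TNC was missed for mimic against negative control (0.0673) and for negative control against mock (0.064). With these arrays left out ZEB1 (0.0512) and CTHRC1 (0.118) were also missed against the negative control, CTHRC1, P3H2 and TGFB1I1 for mimic against mock (0.0886, 0.0775 and 0.106), and CCN2 for negative control against mock (0.0638). In fits on the 6 arrays compared TNC was missed for mimic against negative control (0.071) and for negative control against mock (0.0664). In the same fits NID2, FBN1 and FBLN2 were missed for mimic against mock (0.0551 to 0.082). The cause of these changes was not tested. The other counts stayed within 1.5 times when arrays were quantile-normalized once more or centred on their medians, with dim genes left out, with features averaged per gene, with array weights and with a robust variance trend. THBS1, LOXL1 and NID1 kept their calls against both controls under every alternative run. Low signal limits what can be seen for the 9 genes below the median.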
